A study of Mus musculus with 4 samples.

Results

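The genes described here encode the proteins of the cytoplasmic ribosome. They were taken by name from the gene table, as every row called Rpl or Rps with a number and at most a closing a, l or x, with the stalk genes Rplp0, Rplp1 and Rplp2 and with Rpsa, while pseudogene rows and Rpl10l were left out. The rule gave 79 of the 23537 genes in the table, 32 for the small subunit and 47 for the large subunit, and 78 of them had enough reads to be tested. The cells were MEFs, fibroblasts cultured from C57BL/6 mouse embryos at day 12.5 after conception, which either lacked MBD4 (Mbd4-/-, KO, 2 libraries) or carried the intact gene (Mbd4+/+, WT, 2 libraries). No treatment was given to either genotype, and total RNA of subconfluent cultures was sequenced after removal of ribosomal RNA. MBD4 is a DNA glycosylase that binds methylated CpG and removes thymine from G/T mismatches. The comparison shows how far the mRNAs of ribosomal proteins differed between MEFs with and without MBD4. RNA came from 2 independent samples of each genotype, without a statement of how many embryos or cultures stood behind them, and each p-value rests on the spread between these libraries alone, which may be technical.

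A ribosome holds 1 copy of nearly every one of its proteins, the stalk proteins apart, and the proteins are made in the cytoplasm, carried into the nucleolus and put together there with ribosomal RNA. Their mRNAs are among the most abundant of a growing cell. Most begin with an uninterrupted run of pyrimidines at the 5′ end, the terminal oligopyrimidine (TOP) tract, through which their translation is tied to the mTOR pathway and to the RNA-binding protein LARP1. In bulk RNA, fewer mRNA molecules per cell and a changed share of the RNA cannot be told apart, so every level below is relative to the other genes of the same library.

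The libraries held between 39108275 and 47567835 counts. Mbd4 itself, on chr6:115790715-115803389 of mm9, had 373 and 302 counts in KO against 663 and 630 in WT, a log2 fold change of -0.99 ± 0.11 (SE, n = 2 per genotype, adjusted p = 3e-06). The direction was that of the labels, and which part of the gene was deleted is not stated in the sources used here. Of 8 fibroblast markers, 5 were lower in KO and 3 did not pass the test, and their summed level was 12714 and 13851 CPM (counts scaled to the same effective library size) in KO against 23289 and 20931 in WT. Among markers of other cells, the 3 neural genes in the table summed to 141 and 136 CPM in KO and to 459 and 376 in WT, nearly all of it from Nes. The 4 epithelial genes summed to 3.30 and 2.91 CPM in KO and to 0.692 and 1.27 in WT, and Cdh1 among them rose (3.64 ± 0.29 on the log2 scale, adjusted p = 1.2e-07). The higher sum in KO came from Cdh1 alone. Krt8 had 2 and 0 counts in KO against 6 and 18 in WT, and Krt18 had 0 and 0 against 3 and 7. Epcam did not pass the test (-0.26 ± 0.45). The 3 blood genes summed to 5.79 and 5.99 CPM in KO and to 4.15 and 3.25 in WT. Among these, Csf1r rose (1.74 ± 0.20), and Ptprc, at 0 and 2 counts in KO against 40 and 21 in WT, fell. The 4 endothelial genes summed to between 0.464 and 0.781 CPM and the 2 skeletal muscle genes to between 0.147 and 0.424. Every gene in the table had a count in some library, so none of these markers could be at 0 in all 4. The endothelial gene Cdh5 was at 0 in 3. The listed markers Sox10, Spi1, Hbb-b1, Hba-a1, Myod1 and Myog had no row in the table, and the reason is not stated. The part of these shifts in the results below was not tested.

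Ribosomal protein mRNAs were mostly lower in KO MEFs, by a modest and graded amount. Of the 78 members tested, 62 fell, 1 rose and 15 did not pass the test, at an adjusted p of 0.05 in edgeR's quasi-likelihood test. Across all 15538 genes tested, 32.5% were lower and 34.3% higher at the same threshold, and among the 2277 other genes of at least 100 CPM, which are nearer to the members in abundance, 51.1% were lower. The members had a median log2 fold change of -0.42, or 74.9% of the WT level, against 0.02 over all genes tested and -0.16 over the abundant genes. Their middle range, from the lower to the upper quartile, ran from -0.70 to -0.21. In 66 members both KO libraries lay below both WT libraries. This pattern was shown by 39.8% of all genes tested and by 1303 of the 2277 abundant genes. The opposite order was found in 3 members, Rps15, Rps26 and Rps20, and the libraries overlapped in 9. Over all 15538 genes tested, 6675 had the opposite order and 2673 overlapped. Among the abundant genes these counts were 738 and 236.

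The size of the shift depended on how the libraries were scaled. TMM, the scaling used here, raised the effective size of the KO libraries and lowered that of WT. When each library was scaled to its total alone, 48 members were lower and 3 higher, with a median log2 fold change of -0.27, and the median of all genes moved to 0.17. A change of scaling moves all genes nearly alike. The distance between the median member and the median gene, 0.44 under both scalings, was therefore bound to stay the same. By library totals, 25.5% of all genes tested were lower.

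**Figure D1:**
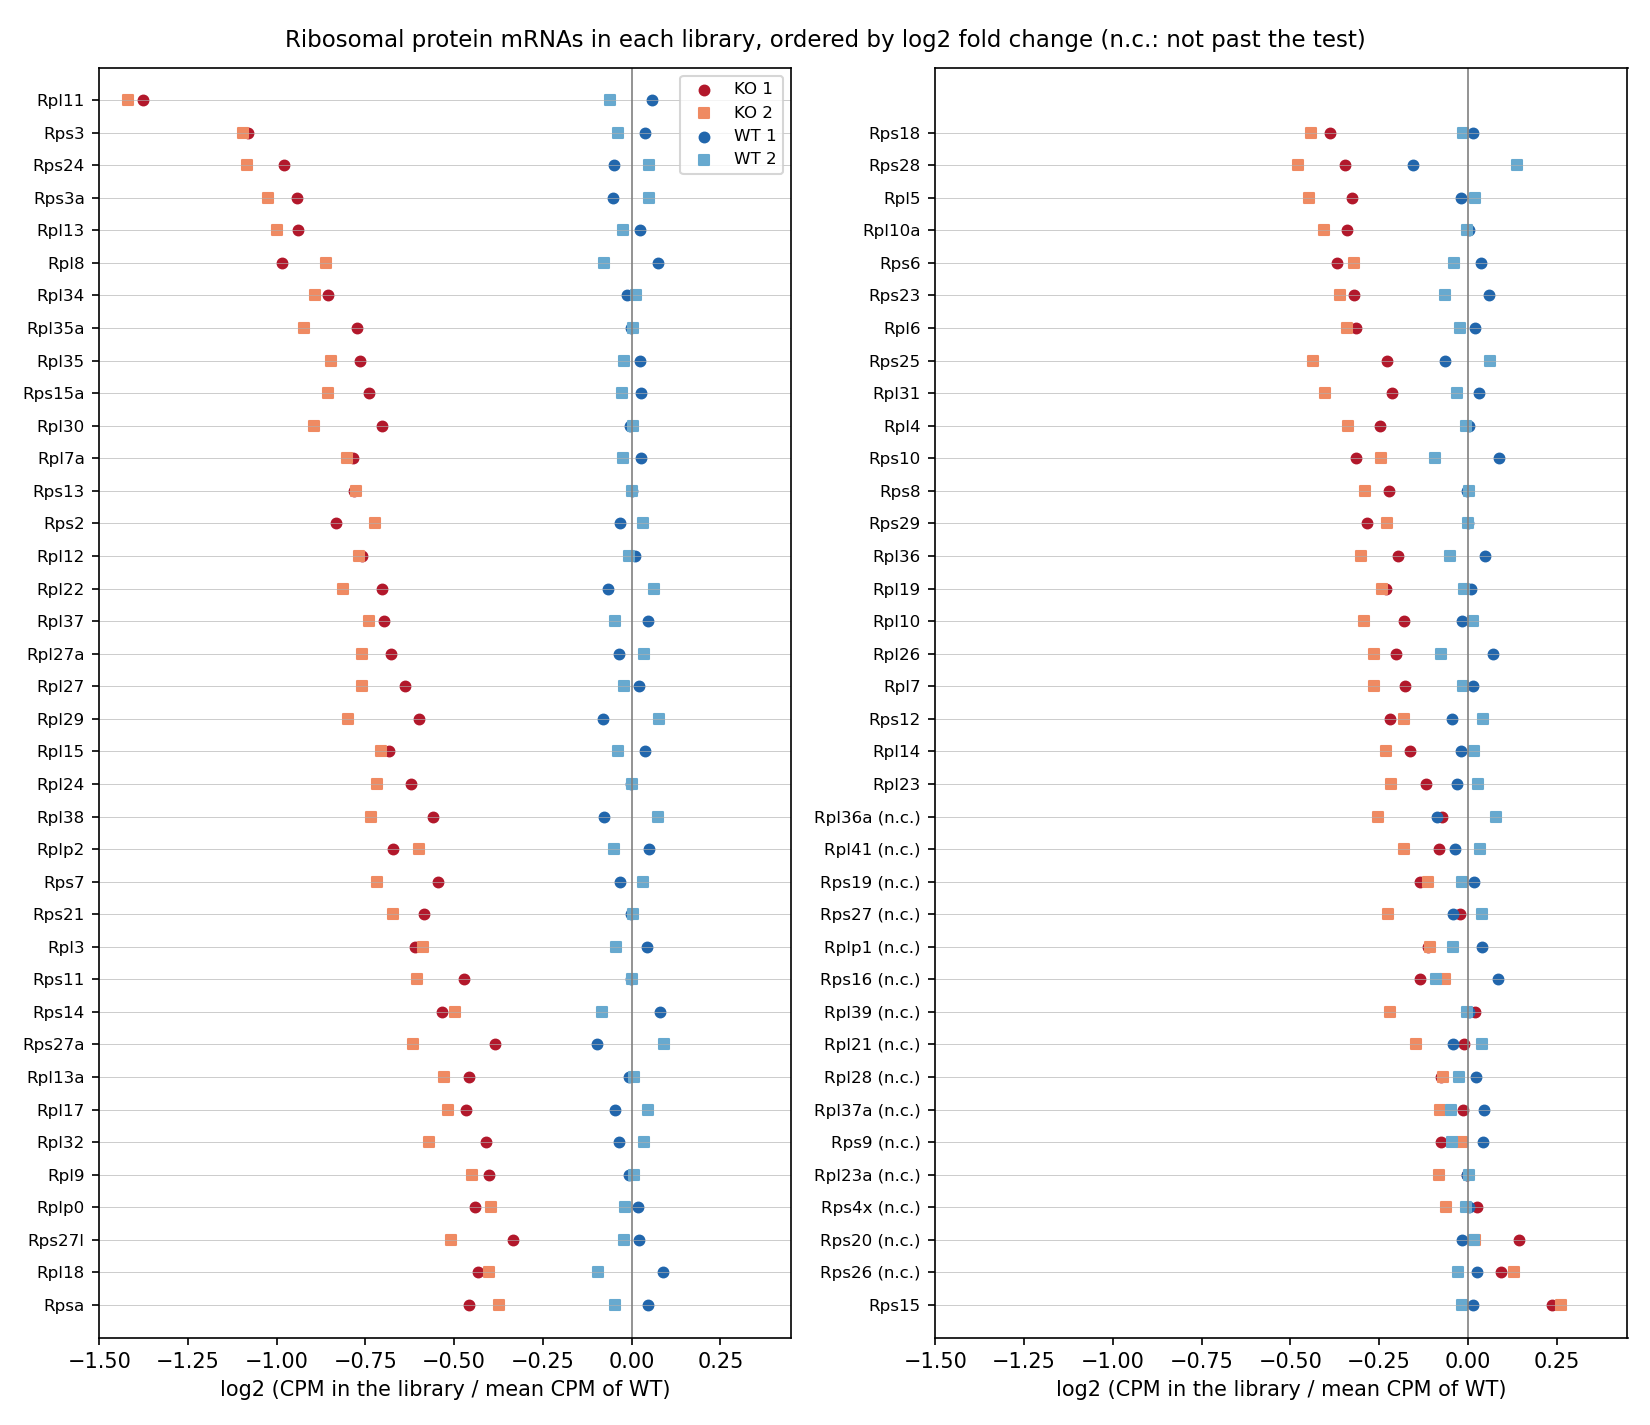
Each row is 1 of 75 ribosomal protein genes tested and each point 1 library, placed by log2 of its TMM-scaled CPM over the mean of the WT libraries (KO red and orange, WT dark and light blue). Genes are ordered by log2 fold change from Rpl11 at -1.40 to Rps15 at 0.25. In 63 of them both KO points lie to the left of both WT points, an order shown by 39.8% of all genes tested.

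As a share of the sequenced RNA, the members took 2.59% and 2.52% of all counts in KO, against 3.07% and 3.09% in WT. The KO mean of 2.56% ± 0.05 (SD, n = 2) was 0.83 of the WT mean of 3.08% ± 0.01 (SD, n = 2). Neither KO library reached a WT library, yet an exact two-sided permutation test of 2 against 2 libraries cannot go below p = 0.333, which is the value it gave.

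**Figure D2:**
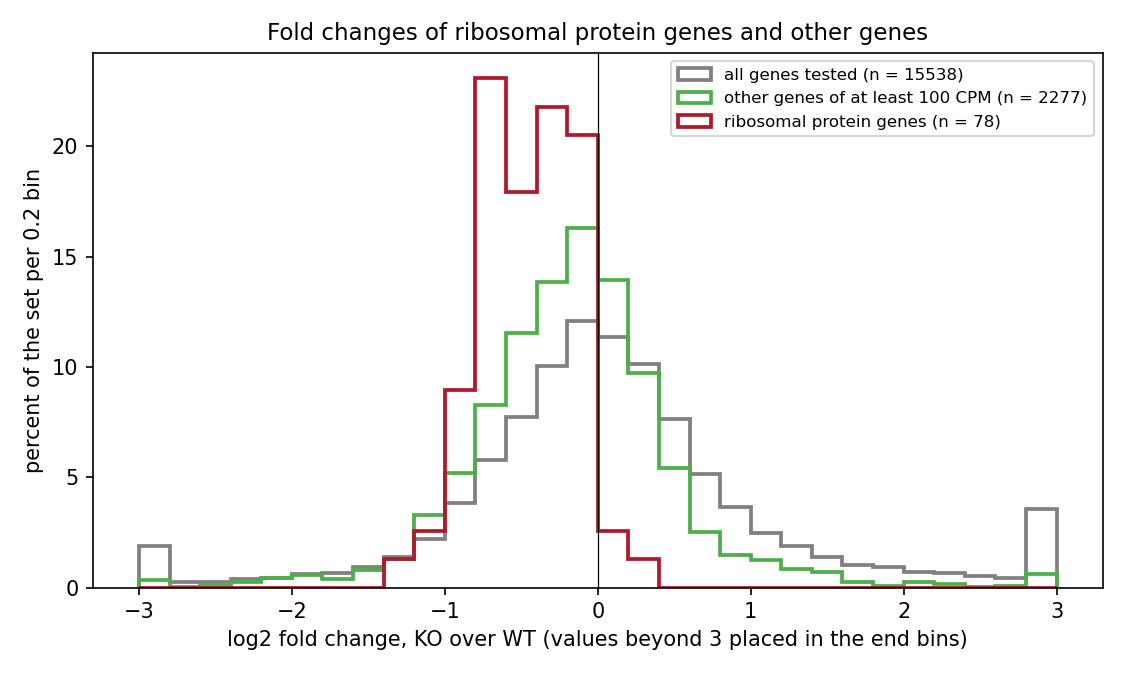
Percent of genes in each bin of 0.2 log2 units of KO over WT, for the 78 ribosomal protein genes (red), the 2277 other genes of at least 100 CPM (green) and all 15538 genes tested (grey). The members lie between -1.40 and 0.25, with 3 above 0, while both other sets spread to both sides.

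The largest fall was that of Rpl11, which encodes a large-subunit protein that joins 5S ribosomal RNA and RPL5 and, outside the ribosome, binds MDM2, the ubiquitin ligase of p53. Rpl11 (ENSMUSG00000059291, chr4:135584180-135609343 of mm9, minus strand) stood at 131 and 127 CPM in KO and at 354 and 326 CPM in WT. The KO level was 37.9% of WT, a log2 fold change of -1.40 ± 0.06 (SE, n = 2 per genotype, adjusted p = 3.7e-10). Rpl5, the partner of Rpl11 in that particle, was at 301 and 277 CPM in KO and at 372 and 382 CPM in WT. Its log2 fold change of -0.39 ± 0.06 (adjusted p = 9.2e-05) was smaller than that of Rpl11 by 1.01, with a combined SE of 0.09 that takes the estimates as independent. Both genes therefore fell, but the particle's mRNAs did not fall by the same amount.

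Among small-subunit genes, Rps3 fell most. RPS3 sits where the mRNA enters the ribosome and also has a known activity on damaged DNA. Its level was 439 and 435 CPM in KO and 953 and 904 CPM in WT, with a log2 fold change of -1.09 ± 0.06 (adjusted p = 3.2e-09). The KO replicates differed by 0.01 on the log2 scale and the WT replicates by 0.08, so the difference between genotypes was far larger than that between replicates. Rps24 stood at 244 and 227 CPM in KO against 464 and 497 in WT, a log2 fold change of -1.03 ± 0.06. Rps24 is, in people, one of the genes mutated in Diamond-Blackfan anaemia, as are Rpl11, Rpl35a and Rps19. Rpl11, Rps3 and Rps24 were the only members at or below -1, a fall to less than 50% of WT.

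Further large falls were those of Rps3a (-0.98), Rpl13 (-0.97), Rpl8 (-0.92), Rpl34 (-0.87), Rpl35a (-0.85) and Rpl35 (-0.81), in log2 fold change. Rpl8, whose protein lies at the centre of the large subunit close to the peptidyl transferase site, was the most abundant of these. It was at 710 and 775 CPM in KO and at 1479 and 1333 CPM in WT. Rps3a was at 213 and 201 CPM in KO against 395 and 424 in WT, and Rpl13 at 171 and 164 against 334 and 323. Rpl34 was at 130 and 127 CPM in KO against 234 and 238 in WT. Rpl35a was at 110 and 99.4 CPM in KO against 188 and 189 in WT, and Rpl35 at 118 and 112 against 204 and 198. In each of these genes the groups did not overlap, and the adjusted p lay between 7.5e-09 and 7.7e-08.

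Rps15 was the 1 member that rose. Its protein, on the head of the small subunit, contacts the decoding region. Rps15 (ENSMUSG00000063457, chr10:79755176-79756859 of mm9, plus strand) was at 359 and 366 CPM in KO and at 308 and 301 CPM in WT, a log2 fold change of 0.25 ± 0.06 (adjusted p = 0.0016). It was higher in both KO libraries than in either WT library, and it stayed past the threshold under all 14 refits, with a log2 fold change between 0.20 and 0.40. Rps26, which contacts the mRNA upstream of the start codon, was at 345 and 354 CPM in KO and 329 and 317 CPM in WT, and its log2 fold change of 0.11 ± 0.06 did not pass the test (adjusted p = 0.11). Rps20 was at 819 and 750 CPM in KO and 731 and 749 CPM in WT (0.08 ± 0.06, adjusted p = 0.26). Under scaling by library totals both passed the test as higher, Rps26 with 0.26 and Rps20 with 0.23, and under upper-quartile scaling Rps26 did, with 0.17.

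The start regions of some of these genes are shown because ribosomal protein genes share promoter letters and the pyrimidine run that becomes the TOP tract, and the members moved by very different amounts. RefSeq windows of GRCm38.p6, from 250 bases before the annotated start to 50 after it, were matched by symbol for 58 of the 79 members. For a gene with several annotated starts, the most upstream was used. The 30 bases around the longest pyrimidine run within 50 bases of the start are given for genes that fell, rose or did not pass the test, with that run in capitals.
Rpl11, chr4:136053358-136053387, minus strand: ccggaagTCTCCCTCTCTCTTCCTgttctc
Rps3, chr7:99483739-99483768, minus strand: cgcaaaacttcaTTTCCCatgcaaaacttc
Rps24, chr14:24490698-24490727, plus strand: ttggtcggcagtgagcggTCCTCTTTTCCT
Rpl13, chr8:123102324-123102353, plus strand: cgtgacgtcaCTTCCCTTTCgcctgatttt
Rpl34, chr3:130730393-130730422, minus strand: ctgacgcgccgCCTTCCCTgacgtacttcc
Rps26, chr10:128626485-128626514, minus strand: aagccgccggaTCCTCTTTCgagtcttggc
Rps15, chr10:80292446-80292475, plus strand: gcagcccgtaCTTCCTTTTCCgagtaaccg
The run was 17 bases long in Rpl11, 10 in Rpl13, 8 in Rpl34, 9 in Rps26 and 11 in Rps15. In Rps24 it was at least 12 and reached the edge of the window. The length in Rps15, which rose, thus lay within that of members that fell. Counted from the annotated start, the run began at 13 in Rpl11, 38 in Rps24, 3 in Rps26 and 25 in Rps15. In Rpl13 (-16) and Rpl34 (-13) it began and ended before the start. These runs are therefore not shown to be TOP tracts. In Rps3 the longest run in this window was 6 bases, at a place well before the annotated start.

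An unbroken run of at least 8 C or T lay within 50 bases of the start in 47 of the 58 members matched (81.0%), and in 35.7% of all 27025 promoter windows. The median window of a member held 21 CpG, against 7 over all promoters. CCGGAAG, the letters of an ETS-type site, was present on either strand in 39.7% of the members and in 9.14% of all promoters. GGGCGG, the core of an SP1-type site, was in 58.6% against 35.9%, and AAGATGG, the core of a YY1-type site, in 15.5% against 6.46%. None of the 3 motifs contains another. These are letter matches, not sites shown to be bound.

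The letters can be read in the 100 bases before the start of a gene that fell and of the gene that rose, where capitals mark any of the 3 motifs.
Rpl13, chr8:123102250-123102349, plus strand: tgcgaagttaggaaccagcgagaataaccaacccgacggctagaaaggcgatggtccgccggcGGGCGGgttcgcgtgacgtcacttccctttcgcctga
Rps15, chr10:80292331-80292430, plus strand: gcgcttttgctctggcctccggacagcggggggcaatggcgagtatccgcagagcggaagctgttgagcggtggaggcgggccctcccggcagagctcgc
The Rpl13 stretch holds GGGCGG and the Rps15 stretch holds none of the 3. Other members differ from this pair. In their full windows, Rps24 (-1.03) holds none of the 3, Rpl11 (-1.40) holds CCGGAAG only and Rps3 (-1.09) holds GGGCGG only. Rps26 (0.11, not past the test) holds CCGGAAG and AAGATGG. Over the tested members with a window, those with GGGCGG had a median log2 fold change of -0.56 (34 members, 29 of them lower) and those without it -0.33 (23 members, 16 lower). With the pyrimidine run the median was -0.40 (46 members) and without it -0.42 (11 members), and with CCGGAAG it was -0.42 (23 members) against -0.40 (34 members) without. With AAGATGG it was -0.63 (9 members, 6 lower) against -0.40 (48 members, 39 lower) without. These medians are descriptions without a test, and 32.5% of all genes tested were lower.

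The subunits are built in equal numbers, and their mRNAs were compared as groups. In the large subunit 38 of 46 members tested fell, with a median log2 fold change of -0.46, and all 46 estimates lay below 0, while 7 of them lay above 0 under scaling by library totals. In the small subunit 24 of 32 fell and 1 rose, with a median of -0.38. Each range was wide, from -1.40 to -0.04 in the large subunit and from -1.09 to 0.25 in the small subunit, and the difference between subunits was not tested. On chromosome X, 1 of the 4 members fell, Rpl10 (-0.23 ± 0.06, adjusted p = 0.0039), beside the 32.5% of all genes. This call was lost under scaling by library totals (-0.09, adjusted p = 0.22) and without KO replicate 2 (-0.18, adjusted p = 0.069). The others (Rpl36a, Rpl39 and Rps4x) had log2 fold changes between -0.16 and -0.02.

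The stalk of the large subunit, which recruits the elongation factors, consists of RPLP0 with copies of RPLP1 and RPLP2. Rplp0 was at 929 and 958 CPM in KO and at 1278 and 1246 CPM in WT (-0.42 ± 0.06, adjusted p = 3.2e-05). Rplp2 was at 173 and 182 CPM in KO and at 285 and 266 CPM in WT (-0.64 ± 0.06, adjusted p = 7.4e-07). Rplp1 was at 704 and 705 CPM in KO and at 781 and 739 CPM in WT, and its log2 fold change of -0.11 ± 0.06 did not pass the test (adjusted p = 0.12). Without WT replicate 2 it did, at -0.18 (adjusted p = 0.0073). RPLP1 and RPLP2 form dimers in the stalk, and the log2 fold change of Rplp2 lay 0.53 below that of Rplp1, with a combined SE of 0.09.

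Some members are near-copies of another ribosomal protein gene. Rpl3l, the striated muscle form of Rpl3, had 0 counts in 3 libraries and 1 in the other, and was not tested. Rpl3 itself was at 338 and 343 CPM in KO and at 532 and 501 CPM in WT, a log2 fold change of -0.60 ± 0.06 (adjusted p = 1e-06). Rps27l, a p53-responsive copy of Rps27, was at 113 and 99.7 CPM in KO and at 144 and 140 CPM in WT (-0.42 ± 0.07, adjusted p = 8.7e-05). Rps27 was at 178 and 155 CPM in KO and at 175 and 186 CPM in WT, where the groups overlapped (-0.12 ± 0.07, adjusted p = 0.16). Rpl39, which lines the exit tunnel of the ribosome, was at 257 and 218 CPM in KO and at 254 and 253 CPM in WT, again with overlap (-0.09 ± 0.07, adjusted p = 0.27). Without KO replicate 1 both Rps27 (-0.22, adjusted p = 0.039) and Rpl39 (-0.21, adjusted p = 0.036) passed the test, and Rps27 also did without WT replicate 1 (-0.16, adjusted p = 0.031). Without KO replicate 2 the sign of Rpl39 turned, to 0.018. Rps6, whose protein is phosphorylated by the S6 kinases downstream of mTOR, was at 159 and 164 CPM in KO and at 210 and 200 CPM in WT, and fell (-0.35 ± 0.06, adjusted p = 0.00016).

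The 15 members that did not pass the test were Rpl36a, Rpl41, Rps19, Rps27, Rplp1, Rps16, Rpl39, Rpl21, Rpl28, Rpl37a, Rps9, Rpl23a, Rps4x, Rps20 and Rps26. Their log2 fold changes lay between -0.16 and 0.11 and their mean levels between 125 and 762 CPM, so the count alone did not set them apart from the 62 that fell, which ranged from 49.5 to 1371 CPM. Over the 78 members the log2 fold changes had an SD of 0.32, against a median SE of 0.06. Replicates of a member differed by a median of 0.08 in KO and 0.06 in WT on the log2 scale, at most by 0.24 (Rpl39, KO) and 0.29 (Rps28, WT). In 10 members a gap between replicates was larger than the log2 fold change.

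Although each ribosome needs equal copies of most of these proteins, the counts of their mRNAs per coding length were far from equal. Per kilobase of coding sequence, the mean level over both genotypes spanned 20.8-fold among the 77 tested members with a gene model. Reads of all exon bases were divided by coding bases alone, which are 357 of 4080 in Rps20 and 480 of 796 in Rpl29. Read uniqueness, described below, also differed, at 89.9% in Rps20 and 21.6% in Rpl29. The part of either in this span was not tested. Rplp1 was highest, at 2060 CPM per kilobase in KO and 2223 in WT, followed by Rps20 at 2197 and 2073 and by Rps29 at 1542 and 1840. Rplp1 and Rps20 changed order between the genotypes, and neither passed the test. Rps29, a zinc-binding protein of the small subunit, fell (-0.26 ± 0.06, adjusted p = 0.0015), but not under scaling by library totals (-0.11, adjusted p = 0.11). At the other end, after Rpl3l, came Rpl29 at 78.7 CPM per kilobase in KO and 127.6 in WT (-0.69 ± 0.08, adjusted p = 6.9e-06). The order of the members by CPM was largely the same in KO and WT, with a Spearman rho of 0.90 over 78 genes, which share the same libraries. Against the level per kilobase, the log2 fold change had a Spearman rho of 0.24 over 77 genes.

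Ribosomal protein genes have many processed pseudogenes, intronless copies spread over the genome, so short reads of their mRNAs often match several places. The reads were 50 bases long, and each 50-base window of a member's mRNA was looked up in mm9. A window was called unique if it had no exact copy outside the gene's own locus. The share of unique windows had a median of 32.8% over the 78 members with a gene model. It ranged from 0.338% in Rps27 to 100% in Rpl3l, with 13 members under 10%. The sources used here do not say how reads matching several places were treated before counting. Among the 22 tested members with at least 50% unique windows, 19 fell and 3 did not pass the test, with a median log2 fold change of -0.49. Among the 55 below 50%, 43 fell and 1 rose, with a median of -0.41. Beside these counts, 32.5% of all genes tested and 51.1% of the other genes of at least 100 CPM were lower. Rps3 (96.6% unique) and Rpl8 (92.1%) were among the largest falls, while Rpl4 (82.2%) fell by only 0.29 ± 0.06 on the log2 scale. Rpl11 had 30.6% unique windows and Rps15 49.2%. Across 77 genes, the Spearman rho of log2 fold change with the unique share was -0.06.

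**Figure D3:**
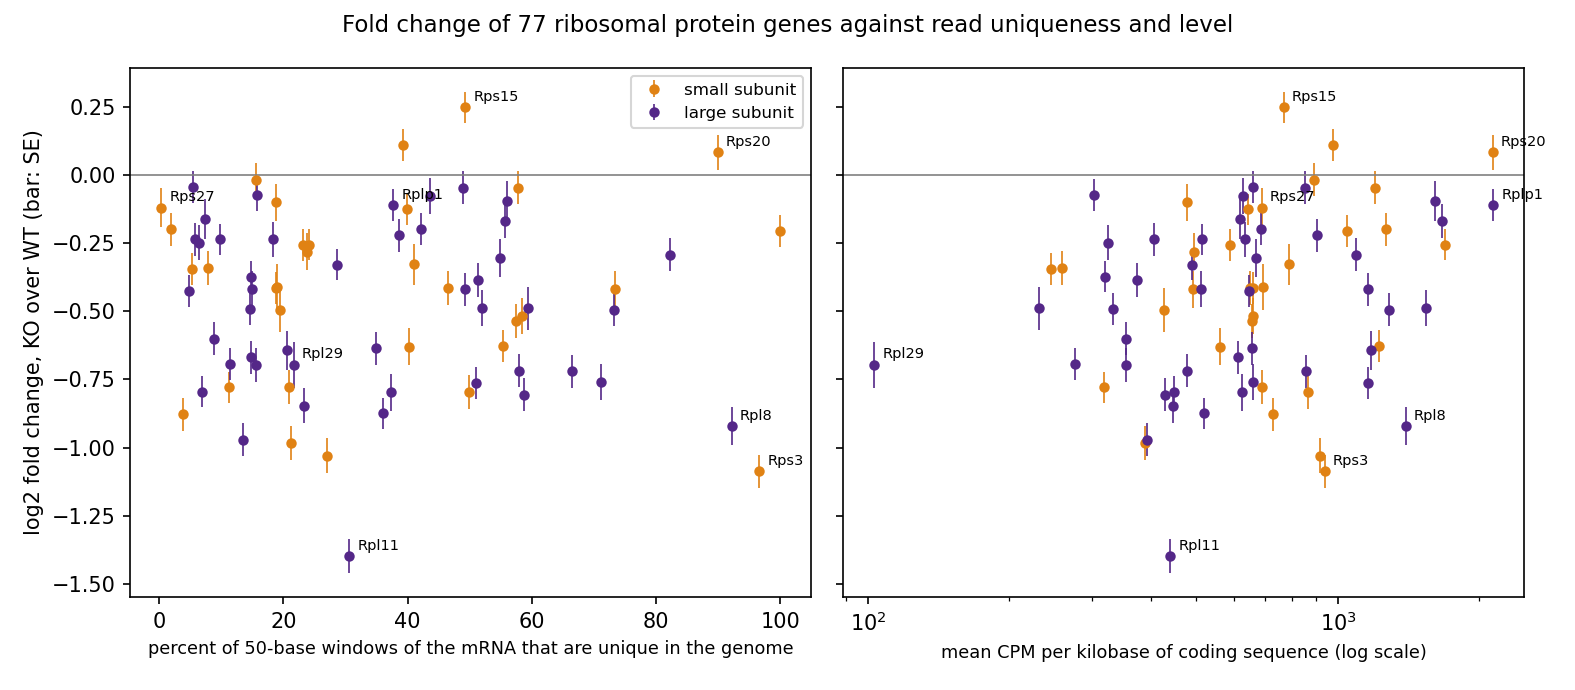
Log2 fold change of KO over WT, with its SE as a bar, for the 77 tested ribosomal protein genes with a gene model, against the percent of 50-base mRNA windows unique in the genome (left) and the mean CPM per kilobase of coding sequence on a log axis (right). Genes of the small (orange) and large (purple) subunit lie below 0 along both axes except for 3 above it. Those below 0 include Rps27 at 0.338% and Rps3 at 96.6% unique, while Rps15 is highest and Rpl11 lowest of all.

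Exon bases are shared with another annotated gene in 26 members, and it is not stated whether the counting used the strand. Wdr38, on the opposite strand, covers 66.2% of the exon bases of Rpl35, and Tlcd1 lies opposite Rpl23a (62.3%). Without these 26 members, 39 of 51 tested fell and 1 rose, and the median was -0.42. Many of the genes host small nucleolar RNAs in their introns. The 30 members with an annotated one had a median log2 fold change of -0.49 (25 lower) and the 47 tested without one a median of -0.41 (37 lower). For comparison, 32.5% of all genes tested and 51.1% of the other genes of at least 100 CPM were lower.

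The pseudogenes have rows of their own in the table. The 138 rows named as pseudogenes of the members summed to between 1237 and 1632 counts per library. The 31 that could be tested had a median log2 fold change of -0.65, with 27 of them below 0. At these low counts 6 of the 31 were lower and 1 higher, beside 32.5% and 34.3% of all genes. Such a low number of calls does not show a smaller shift in them. DESeq2 called 0 of them lower (2 at an unadjusted p of 0.05), and 1 was lower without KO replicate 2. The higher row was Rplp0-ps1 (chr3:93082063-93082995 of mm9), with 596 and 501 counts in KO and 10 and 6 in WT, a log2 fold change of 6.03 ± 0.22 (adjusted p = 5.7e-11). Its parent gene Rplp0 fell in the same libraries. Rpl22-ps1 (-1.60), Rpl15-ps2 (-1.57) and Rpl3-ps1 (-1.51), the largest falls, each lost their call in DESeq2 (adjusted p between 0.056 and 0.15), and Rpl3-ps1 also in the robust fit (adjusted p = 0.22). Rpl15-ps2 and Rpl22-ps1 lost it without KO replicate 2 (adjusted p = 0.21 and 0.13) or WT replicate 2 (0.092 and 0.1), and Rpl15-ps2 also without KO replicate 1 (0.063).

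Some ribosomal proteins are encoded by genes outside the naming pattern, and 7 such genes could be tested. Gnb2l1, which encodes the small-subunit scaffold RACK1 and was the most abundant, was at 1046 and 1056 CPM in KO and 1495 and 1386 CPM in WT (-0.45 ± 0.06, adjusted p = 2.4e-05). Rpl36al fell by 0.81 ± 0.08 on the log2 scale. Of all 7, 5 fell and 2 rose, with a median of -0.40, beside 32.5% lower and 34.3% higher among all genes tested. Fau, a ubiquitin-like protein fused to a small-subunit protein, was at 123 and 123 CPM in KO and 110 and 104 CPM in WT (0.20 ± 0.06, adjusted p = 0.0076). Rpl22l1, a copy of Rpl22, was at 79.9 and 60.3 CPM in KO and 57.0 and 56.6 CPM in WT (0.31 ± 0.10, adjusted p = 0.017). Both calls were lost without KO replicate 1 (Fau 0.20, adjusted p = 0.055, Rpl22l1 0.09, adjusted p = 0.43), and that of Fau also without WT replicate 2 (0.13, adjusted p = 0.096). Rpl22, the parent gene, fell by 0.76 ± 0.07 on the log2 scale.

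Other genes of the protein synthesis machinery were listed beside the members. Of 24 further mRNAs known to carry a TOP tract, 19 fell (79.2%) and 1 rose, with a median log2 fold change of -0.26. Over all genes tested 32.5% were lower and 34.3% higher, and 51.1% of the other genes of at least 100 CPM were lower. The list is led by Eef1a1, the elongation factor that brings aminoacyl-tRNA to the ribosome, at 5908 and 5732 CPM in KO and 6789 and 6809 CPM in WT (-0.22 ± 0.06, adjusted p = 0.0071). The largest falls were those of Slc25a5 (-1.60), an ADP/ATP carrier of mitochondria, Pabpc1 (-0.80), the poly(A)-binding protein, and Npm1 (-0.74), a nucleolar chaperone. Eef2, the translocation factor, was the 1 that rose (0.21 ± 0.07, adjusted p = 0.017), a call that was lost without KO replicate 2 (0.16, adjusted p = 0.11) or WT replicate 2 (0.10, adjusted p = 0.13). Under scaling by library totals 11 of the 24 were lower and 2 higher, beside 25.5% of all genes lower and 6628 of 15538 higher. Eef1a1 was not called under that scaling (-0.08, adjusted p = 0.29).

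Translation factors outside that list had a larger median change. Of 37 genes, 33 fell (89.2%) and 1 rose, with a median of -0.66, beside 32.5% lower and 34.3% higher among all genes tested. Of the other genes of at least 100 CPM, 51.1% were lower. Scaled by library totals, 27 were lower and 2 higher in the list, beside 25.5% of all genes lower and 6628 of 15538 higher. Abce1, which recycles ribosomes after termination, was at 156 and 150 CPM in KO and 481 and 457 CPM in WT (-1.61 ± 0.06). Eif5a (-1.17), the hypusine-carrying factor, and Eif3c (-1.12), a scaffold of the initiation factor eIF3, followed, and Eif4g2, the most abundant, fell by 1.05 ± 0.06. Eif1b was higher (0.29 ± 0.08, adjusted p = 0.0055), but not without WT replicate 2 (0.20, adjusted p = 0.059).

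Genes of RNA polymerase I and ribosome assembly also lay mostly below WT. Of 71 genes, 59 fell (83.1%) and 3 rose, with a median of -0.61, beside 32.5% lower and 34.3% higher among all genes tested. Scaled by library totals, 49 were lower and 7 higher, beside 25.5% of all genes lower and 6628 of 15538 higher. Gnl3, which encodes the nucleolar GTPase nucleostemin, was at 63.2 and 58.1 CPM in KO and 197 and 197 CPM in WT (-1.70 ± 0.06). Mphosph10 (-1.52), of the small-subunit processome, and Nip7 (-1.45), of large-subunit maturation, came next, and the helicase Ddx21 was the most abundant (-0.73). The genes that rose were Rrp1 (0.36), Nvl (0.28) and Utp14a (0.22, adjusted p = 0.025), and the call of Utp14a was lost in DESeq2 (adjusted p = 0.066), without KO replicate 1 (0.32) and without WT replicate 2 (0.093).

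Mitochondrial ribosomes have their own proteins, encoded by the Mrpl and Mrps genes. Of 76 tested, 47 fell (61.8%) and 3 rose, with a median of -0.32, beside 32.5% lower and 34.3% higher among all genes tested. Mrpl20 fell most (-1.57 ± 0.07), before Mrpl34 (-0.96) and Mrpl47 (-0.93), and Mrpl13 was the most abundant (-0.31). Mrpl41 (0.36), Mrpl49 (0.35) and Mrpl14 (0.28) rose, the last of them not without KO replicate 2 (adjusted p = 0.089). Under scaling by library totals 36 were lower and 11 higher, beside 25.5% of all genes lower and 6628 of 15538 higher.

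The mTOR pathway, which governs translation of TOP mRNAs, showed no common direction. Of 34 genes, 11 fell, 11 rose and 12 did not pass the test, close to the 32.5% and 34.3% of all genes, and the median of 0.09 lay between -0.002 and 0.24 over all refits. Rragd, a Rag GTPase that signals amino acids to mTORC1, rose most, from 0.581 and 0.415 CPM in WT to 5.83 and 5.34 CPM in KO (3.47 ± 0.23). Deptor (1.73), an inhibitor of mTOR, and Sesn1 (0.86), a p53-responsive sestrin, rose as well. Eif4ebp1, whose protein holds back the cap-binding factor eIF4E, was at 51.5 and 55.4 CPM in KO and 147 and 120.0 CPM in WT (-1.32 ± 0.09). Sesn2 (-1.20) and Larp4 (-0.92) fell, as did Rictor, the mTORC2 subunit and the most abundant of the list (-0.73 ± 0.06).

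**Figure D4:**
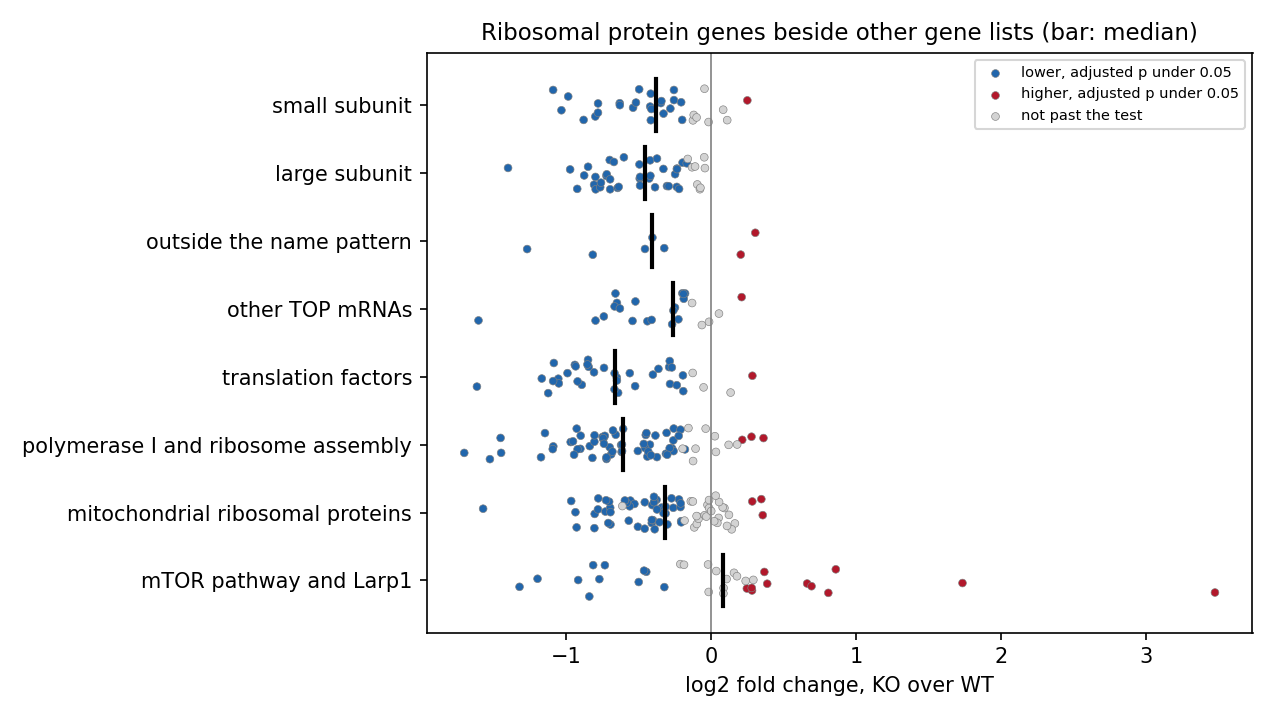
Log2 fold change of KO over WT for the genes tested in each list, 1 point per gene (blue lower and red higher at an adjusted p of 0.05, grey not past the test), with the median as a black bar. The medians of the small and large subunit genes, -0.38 and -0.46, lie between those of the other TOP mRNAs (-0.26) and the translation factors (-0.66), and that of the mTOR list is 0.09.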

How the data were processed

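RNA of 2 Mbd4-/- and 2 Mbd4+/+ MEF samples was sequenced as stranded, single-end 50-base reads after rRNA removal. The authors aligned the reads to mm9 with TopHat2 and Bowtie and deposited raw read counts per Ensembl gene from HTSeq 0.5.4p3. The deposited table also holds normalized counts, log2 ratios and p-values from DESeq, which were not used. The sources used here do not state the strand setting or the treatment of multiply matching reads.

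The members and lists were chosen with earlier results of these data known. Counts were filtered (filterByExpr, 15538 genes), scaled by TMM and tested with edgeR 4.0.16 (R 4.3.3) by quasi-likelihood, with a single genotype term, and p-values were adjusted by Benjamini-Hochberg over all genes tested, with a threshold of 0.05. Levels are TMM-scaled CPM, each SE was derived from the fold change and the F statistic of its test, and SDs are over libraries. The share of counts was compared by an exact permutation test (scipy 1.17.1). With 39108275 to 47567835 counts per library, every tested member had a mean of at least 49.5 CPM. In counts simulated for this comparison (15199 genes), edgeR recovered 82 of 96 log2 changes of 1 and 51 of 99 of 0.5, with 6 false calls. The simulation changed few genes, at all levels and in both directions, while 5335 were higher and 5045 lower in the data. Its figures therefore need not hold for the members.

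Gene models are GENCODE for mm9, which held 78 of the 79 members (not Rpl41) and 23393 of 23537 identifiers. Windows were taken from each gene's shortest transcript with a consensus coding sequence. Promoter windows are from RefSeq (GRCm38.p6). Genes named are the members with the 10 largest falls and rises past the threshold (mean of at least 10 CPM), Rpl3l, Rps27l and their parents with Rpl39, the stalk genes, Rpl5, Rpl11 and Rps6, and the 3 highest and lowest levels per coding length, and in each list up to 3 genes per direction with the most abundant one. Some genes that this rule names are not reported here. Rpl4, promoter examples and pseudogene details were chosen after values were seen. The alternatives tried were DESeq2 1.42.0, limma-voom (limma 3.58.1), a robust fit, a replicate block, other scalings, filters and thresholds, and the omission of each library.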

Additional observations from a re-analysis of the deposited data

How the results depend on the processing

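Over the 14 refits, the count of members lower in KO lay between 48 and 65 and that of members higher between 1 and 3. All 14 kept the median of the members below 0, 63 members lay below 0 in every fit, and 48 were lower past the threshold in every fit. Scaling by library totals gave 3 higher and 48 lower with a median of -0.27, and put 12 members above 0 that lay below it by TMM, of which 0 had passed the test, and upper-quartile scaling gave 2 higher with a median of -0.36. Over all genes tested, 5335 were higher and 5045 lower by TMM, and 6628 higher and 3964 lower by library totals. Leaving out each library in turn gave 56 to 65 members lower, 1 higher and a median between -0.46 and -0.39, the lowest without WT replicate 2. At an adjusted p of 0.01 with a log2 fold of 2 in edgeR, 0 members passed in either direction. With a log2 fold of 1, an alternative chosen after seeing the data, 3 were lower (Rpl11, Rps3 and Rps24) and 0 higher. Others chosen after seeing the data kept the members with at least 50% unique windows (0 higher, 19 lower, median -0.49) or those with no shared exon base (39 lower). Single genes (64, of which 24 members) gave 893 values, of which 21 lost and 5 gained the threshold and 4 reversed. Among the genes recomputed singly, the reversals were Rpl39 (0.055), Rplp1 (0.040) and Rps27 (0.030) with library totals and Rpl39 without KO replicate 2 (0.018, the highest of a range down to -0.21 without 1 library). The cause of these shifts was not tested, except that library totals move the median of all genes from 0.02 to 0.17.

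With the replicate number as a block, 63 members were lower and 1 higher, with a median of -0.41 (replicate block). Over genes, the deviations of KO replicate 1 and WT replicate 1 had a correlation of -0.055. A weak shared effect could give the same value, so it does not settle whether the numbers pair samples. The share of counts in the members was lower in KO by 0.53 percentage points, by 0.82 over the effective library size and by 0.56 without the 10 most abundant other genes. With 2 libraries per genotype and a median SE of 0.06, log2 fold changes near 0.2 stood at the limit of the test.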
